A study of Mus musculus with 6 samples.

Results

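The catalytic subunits of the proteasome were compared between GFAP-IL6 and wild-type (WT) mouse cortex, as 3 immunosubunits, their 3 constitutive partners and the 3 genes of the PA28 activators. The 9 genes were taken from the count table by symbol, by a rule that uses no measured values, though with earlier results of these data known. Each symbol matched 1 of the 33000 gene rows. All 9 passed the filter on low counts and were among the 15341 genes tested. The samples were frontal cortex from 3-month-old mice on the C57BL/6 background, 3 homozygous for GFAP-IL6 and 3 WT, with 1 TruSeq mRNA library for each sample. The study describes the cortical RNA as coming from WT mice and GFAP-IL6 mice, as many as there are libraries. The GFAP-IL6 transgene expresses the cytokine IL6 in astrocytes from the promoter of Gfap, the gene of an astrocyte filament protein. The samples are bulk tissue, in which more cells of a type and more RNA per cell cannot be told apart.

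The proteasome is the barrel-shaped protease that degrades proteins tagged with ubiquitin. Its 20S core is built from rings of alpha and beta subunits, of which the beta subunits encoded by Psmb5, Psmb6 and Psmb7 cut peptide bonds. Cells of the immune system, and other cells exposed to interferon, exchange these subunits in new particles for Psmb8, Psmb9 and Psmb10, respectively, and the resulting immunoproteasome supplies peptides suited to presentation on MHC class I molecules. PA28 rings cap the core and open it. Psme1 and Psme2 encode the subunits of a cytoplasmic ring that is also inducible by interferon, whereas Psme3 encodes a ring found mainly in the nucleus.

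Of the 9 genes, only Psmb8 passed the test for a difference between the groups, and it was 2.34-fold higher in GFAP-IL6 cortex. Psmb9 was 1.78-fold higher in value without passing the test, and Psmb10 was at 0.983 times the WT level. None of the constitutive partners and none of the PA28 genes passed the test. A gene was called at an adjusted p under 0.05 by edgeR, which fits the counts of all genes together. By this rule 1 of 9 genes was called, against 2.86% of all genes tested, and 2.65% of all genes tested were called as higher in GFAP-IL6. The groups did not overlap in 4 of the 9 genes, against 26.5% of all genes tested, and with 9 genes nothing particular to the group is read from either count. Among these 4, Psmb8 and Psmb9 were higher in GFAP-IL6 and Psmb6 and Psmb7 lower, where 12.7% of all genes tested were lower without overlap. The median log2 fold change was -0.06 over the 9 genes and -0.00 over all genes tested.

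Library totals ranged from 7.56 to 16.9 M counts (M for mega). Every GFAP-IL6 library, at 11.1 M or fewer, was shallower than every WT library, at 11.6 M or more. Levels below are CPM, counts per 1 M counts of the library after TMM scaling, which equalises libraries on the bulk of their genes, or TPM, in which counts are first divided by gene length and which is used where genes are compared with each other. In this scale 3 counts, the floor of detection used here, correspond to between 0.179 and 0.396 CPM. All 9 genes were above this floor in every library.

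**Figure D1:**
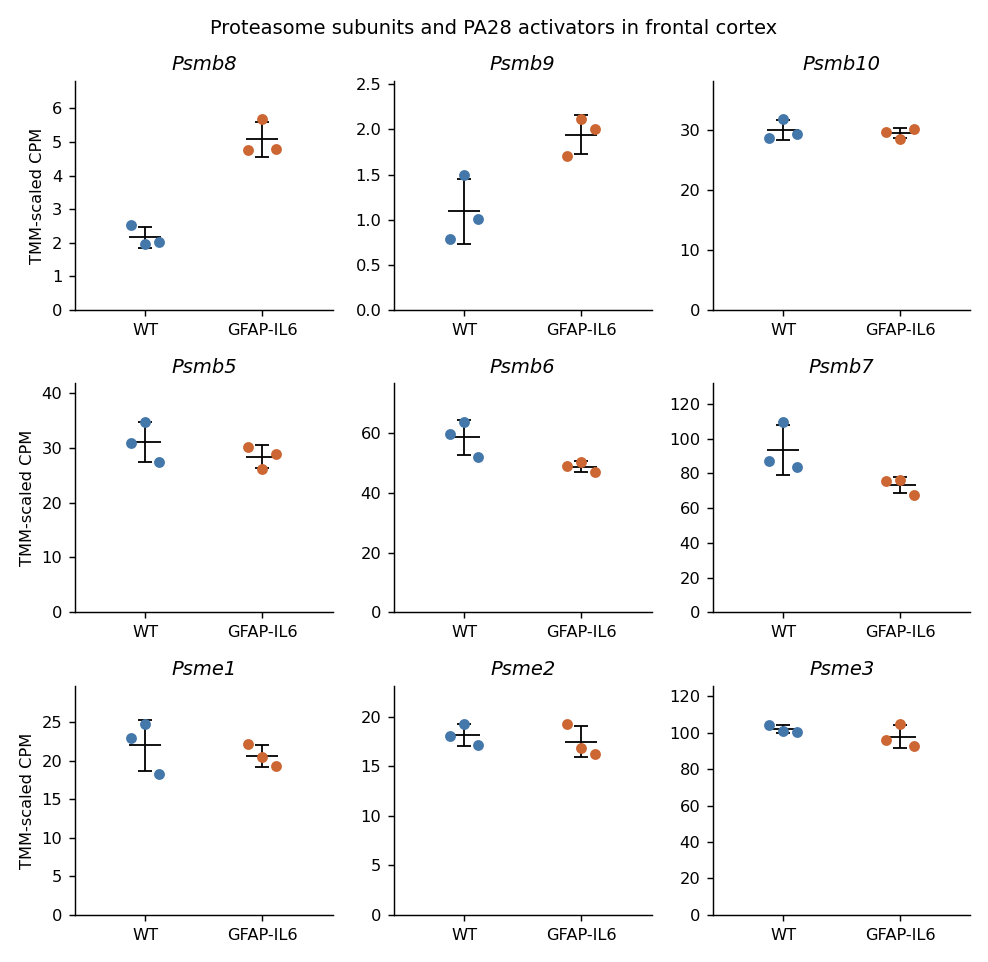
Level of each of the 9 genes in TMM-scaled CPM on a linear axis from 0, with 1 point for each library (replicates 1 to 3 from left to right) and a bar and whiskers for the mean and SD of 3 libraries. Psmb8 and Psmb9 lie higher in all GFAP-IL6 libraries, Psmb6 and Psmb7 lie lower, and the other genes overlap between groups.

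Psmb8 encodes the immunosubunit that replaces Psmb5, also known as beta5i or LMP7. The gene (ENSMUSG00000024338.12) lies on chromosome 17 from 34197721 to 34201454 on the plus strand of GRCm38, the assembly also named mm10. The WT libraries held 29, 33 and 32 counts of Psmb8, and the GFAP-IL6 libraries 53, 43 and 43, although the latter were shallower. On the CPM scale its level was 2.53, 1.97 and 2.01 in WT and 4.75, 5.68 and 4.80 in GFAP-IL6. The lowest GFAP-IL6 library was thus well above the highest WT library. The means were 2.17 ± 0.311 CPM in WT against 5.08 ± 0.522 CPM in GFAP-IL6 (SD, n = 3 each). On the log2 scale Psmb8 rose by 1.23 ± 0.22 (SE; edgeR, adjusted p = 0.00673), and the 95% interval of the fold change ran from 1.70 to 3.25. Psmb8 remained called in all 14 alternative analyses, with log2 fold changes from 1.15 to 1.39 and adjusted p values from 0.000291 to 0.0426.

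In GENCODE, 14.7% of the exon bases of Psmb8 lie in an exon of Gm20496, an antisense gene on the opposite strand. This share refers to the 3381 exon bases of Psmb8 in release M21, whereas the authors counted on an earlier release and their table gives Psmb8 a length of 1628 bases. For Psmb9 the lengths are 3660 and 1351 bases. TPM below use the lengths in the table, and overlaps and shared subsequences use M21, so that both depend on the gene model. Gm20496 received 6, 12 and 13 counts in the WT libraries and 11, 22 and 20 in the GFAP-IL6 libraries. The fitted change was 1.48 on the log2 scale (edgeR, adjusted p = 0.0809). The methods do not state whether counting used the strand of reads, so that reads of the 2 genes cannot be told apart where they overlap. Of the 50-base subsequences of Psmb8, 11.9% also occur in transcripts of other genes, Gm20496 among them.

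Psmb9 encodes the immunosubunit that replaces Psmb6, also known as beta1i or LMP2. It lies in the same MHC region of chromosome 17, from 34181987 to 34187764 on the minus strand (ENSMUSG00000096727.1). Its counts were the lowest of the 9 genes, at 9, 25 and 16 for WT and 19, 16 and 18 for GFAP-IL6. After scaling to library size these became 0.784, 1.49 and 1.004 CPM in WT and 1.70, 2.11 and 2.01 CPM in GFAP-IL6. The groups did not overlap, and WT replicate 2 was the WT library nearest to GFAP-IL6. The log2 fold change was 0.78 ± 0.31 (SE), with an unadjusted p of 0.0289 and an adjusted p of 0.194 by edgeR. Psmb9 was not called in any of the 14 alternatives, in which the adjusted p ranged from 0.128 to 0.439. Its interval, from 1.07-fold to 2.75-fold higher, includes the change of Psmb8, and these libraries could not tell a change of that size in Psmb9 from a much smaller one.

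Psmb10 encodes the immunosubunit that replaces Psmb7, also known as beta2i or MECL-1. It is the immunosubunit gene outside the MHC region, on chromosome 8 from 105935735 to 105938444 on the minus strand (ENSMUSG00000031897.8). Its level was 28.7, 31.8 and 29.4 CPM in WT and 29.7, 28.5 and 30.1 CPM in GFAP-IL6. The groups overlapped, and the change was -0.03 ± 0.09 on the log2 scale (SE; edgeR, adjusted p = 0.902). Its interval ran from 0.858-fold to 1.13-fold, below the lower end of the interval of Psmb8.

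The changes of the immunosubunits were set against each other within each library, where the scaling of the library cancels. The log2 ratio of Psmb8 to Psmb10 was higher by 1.26 in GFAP-IL6, with no overlap of the groups, and that of Psmb9 to Psmb10 by 0.90, again with no overlap. The exact two-sided permutation p was 0.1 for both and 0.15 after adjustment over the 3 ratios, and 0.1 is the smallest that 3 against 3 libraries allow. The ratio of Psmb8 to Psmb9 overlapped between groups, with a difference of 0.36 and an exact permutation p of 0.5. This difference was 0.04 without WT replicate 2 and 0.69 without WT replicate 1. In WT alone this ratio varied over libraries from 0.13 to 1.42 on the log2 scale, where Psmb9 had 9 to 25 counts.

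The sequence around the start of each gene was examined, because Psmb8, Psmb9 and the peptide transporter gene Tap1 are neighbours. Tap1 lies between them. Its annotated span overlaps that of Psmb9 by 212 bases on the opposite strand, and 495 bases separate it from Psmb8. RefSeq promoter windows on GRCm38.p6, from 250 bases before to 50 bases after a transcript start, were available for 8 of the 9 genes. The windows of Psmb9 and Tap1 run in opposite directions and share 275 bases. Windows were searched on both strands for TTCNNNGAA, the general form of a site for STAT factors, for its narrower form TTCCNGGAA, and for GAAANNGAA, which resembles the core that interferon regulatory factors bind. The Psmb8 window held 1 match to TTCNNNGAA, beginning 97 bases before the start. The windows of Psmb9, Psmb10, Psmb5, Psmb6, Psme2 and Psme3 held no match to any of the 3 patterns, and that of Psme1 held 1 match to GAAANNGAA. The Psme1 match began 10 bases after the start, and the whole Psme1 window lies inside the GENCODE gene. Among 32851 promoter windows, 8.3% held TTCNNNGAA, 1.15% held TTCCNGGAA and 8.56% held GAAANNGAA. A match to these letters is not evidence of binding, and RefSeq starts Psmb8 474 bases and Psmb9 434 bases inside the GENCODE gene. The windows of the immunosubunit with the match, of its MHC neighbour and of its constitutive partner are shown 5′ to 3′ along each gene, with matched letters in capitals:

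Psmb8, chr17:34197945-34198244, plus strand: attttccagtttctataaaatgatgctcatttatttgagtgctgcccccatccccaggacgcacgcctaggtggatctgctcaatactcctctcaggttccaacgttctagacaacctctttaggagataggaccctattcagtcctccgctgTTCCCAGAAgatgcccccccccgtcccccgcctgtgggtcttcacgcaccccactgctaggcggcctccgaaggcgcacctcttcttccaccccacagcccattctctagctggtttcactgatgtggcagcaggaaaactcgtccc

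Psmb9, chr17:34187281-34187580, minus strand: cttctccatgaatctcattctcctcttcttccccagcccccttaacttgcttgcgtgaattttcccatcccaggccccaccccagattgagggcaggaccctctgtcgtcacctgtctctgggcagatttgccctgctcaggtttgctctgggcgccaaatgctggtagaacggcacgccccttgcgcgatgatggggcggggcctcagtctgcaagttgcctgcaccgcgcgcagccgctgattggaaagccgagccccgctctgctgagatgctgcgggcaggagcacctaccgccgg

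Psmb5, chr14:54617946-54618245, minus strand: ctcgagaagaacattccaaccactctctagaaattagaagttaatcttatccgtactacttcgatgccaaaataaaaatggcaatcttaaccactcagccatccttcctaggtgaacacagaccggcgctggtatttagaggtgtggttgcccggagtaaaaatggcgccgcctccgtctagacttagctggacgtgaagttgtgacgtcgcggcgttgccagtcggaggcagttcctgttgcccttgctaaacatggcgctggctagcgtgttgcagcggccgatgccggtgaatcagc

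Tap1 itself, which carries peptides from the proteasome into the endoplasmic reticulum, was covered by 40, 30 and 43 reads of the WT libraries and by 50, 26 and 42 of the GFAP-IL6 libraries. This corresponded to 3.48, 1.79 and 2.70 CPM in WT and 4.48, 3.43 and 4.69 CPM in GFAP-IL6, with an overlap at WT replicate 1. The fitted difference was 0.70 ± 0.26 on the log2 scale (SE; edgeR, adjusted p = 0.172).

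The constitutive partners were examined next. Psmb5, which carries the chymotrypsin-like activity, lies on chromosome 14 from 54614119 to 54618022 on the minus strand (ENSMUSG00000022193.6). Its level was 30.7, 34.7 and 27.4 CPM in WT and 30.03, 26.01 and 28.9 CPM in GFAP-IL6. The groups overlapped, with a difference of -0.13 ± 0.11 on the log2 scale (SE; edgeR, adjusted p = 0.533) and an interval from 0.779-fold to 1.08-fold. Of its 50-base subsequences, 54.1% also occur in transcripts of other annotated genes, namely the pseudogene Psmb5-ps, Gm3375 and the microRNA gene Mir686. Its level is therefore uncertain where such reads were left out of the counts. In M21, 12.1% of its exon bases lie in an exon of Mir686 on the same strand, where the strand of reads cannot separate the genes. Shares and ratios of Psmb8 to Psmb5 carry this uncertainty.

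Psmb6, which carries the caspase-like activity, lies on chromosome 11 from 70525367 to 70527858 on the plus strand (ENSMUSG00000018286.6). Its level was 59.6, 63.7 and 52.05 CPM in WT and 49.03, 50.3 and 46.8 CPM in GFAP-IL6. The groups were separated by a small margin, with GFAP-IL6 lower, and the fitted difference was -0.26 ± 0.09 on the log2 scale (SE; edgeR, adjusted p = 0.144). Psmb7, which carries the trypsin-like activity, lies on chromosome 2 from 38588036 to 38644087 on the minus strand (ENSMUSG00000026750.5). Its level was 87.01, 109.8 and 83.6 CPM in WT and 75.7, 76.3 and 67.8 CPM in GFAP-IL6. Here too the groups did not overlap, and WT replicate 2 stood above the other WT libraries. The fitted difference was -0.35 ± 0.11 on the log2 scale (SE; edgeR, adjusted p = 0.108). In M21, 11.8% of the exon bases of Psmb7 lie in an exon of Nek6 on the opposite strand. Because the strand setting is not stated, reads of Psmb7 and Nek6 cannot be told apart there. Psmb7 passed the threshold without the low-count filter, with an adjusted p of 0.0194, and with the replicate number as a block, with an adjusted p of 0.0464. Without WT replicate 2 its difference was -0.22 (adjusted p 0.173) and that of Psmb5 -0.03, and over all alternatives the adjusted p of Psmb7 reached 0.392 by edgeR.

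**Figure D2:**
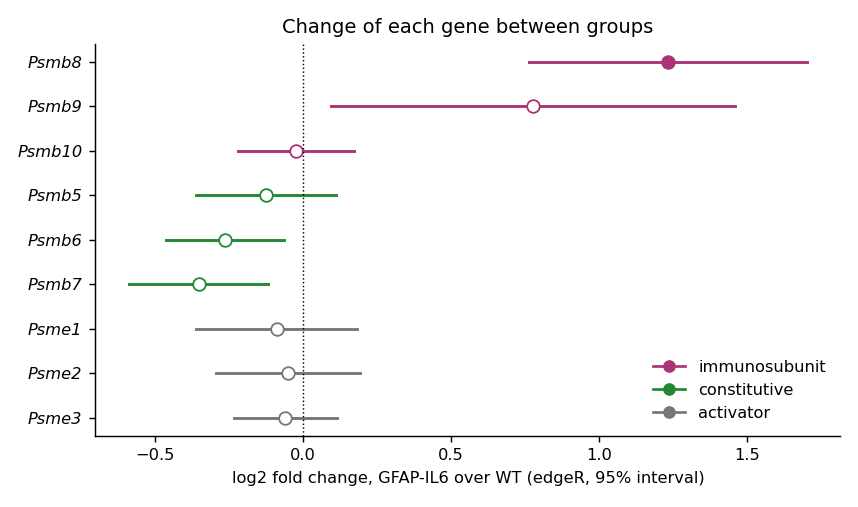
Log2 fold change of each of the 9 genes, GFAP-IL6 over WT, as fitted by edgeR with its 95% interval, coloured by role and filled where the adjusted p was under 0.05. Psmb8 is filled at 1.23, the interval of Psmb9 is wide, and the values of Psmb6 and Psmb7 lie at -0.26 and -0.35.

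The balance between each immunosubunit and its partner was then measured within each library as a share of the TPM of the pair. Psmb8 made up 4.21%, 2.94% and 3.77% of the Psmb8 and Psmb5 transcripts in WT and 7.80%, 10.5% and 8.16% in GFAP-IL6. The mean share was 3.64 ± 0.643% in WT against 8.81 ± 1.44% in GFAP-IL6 (SD, n = 3 each). Psmb9 made up 0.771%, 1.36% and 1.13% of its pair with Psmb6 in WT and 2.01%, 2.42% and 2.47% in GFAP-IL6, with means of 1.09 ± 0.298% and 2.302 ± 0.254% (SD, n = 3 each). Transcripts of both MHC-linked immunosubunits thus remained a small part of their pairs in either group.

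Psmb10 had a larger share of its pair, at 23.1%, 20.9% and 24.3% in WT and 26.4%, 25.4% and 28.9% in GFAP-IL6. Its means were 22.8 ± 1.72% and 26.9 ± 1.79% (SD, n = 3 each). In all 3 pairs every GFAP-IL6 library was above every WT library. For Psmb10 the level of the immunosubunit itself overlapped between groups, and that of its partner Psmb7 did not.

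The mean log2 ratio of immunosubunit to partner was higher in GFAP-IL6 by 1.36 for Psmb8 to Psmb5, by 1.13 for Psmb9 to Psmb6 and by 0.32 for Psmb10 to Psmb7. These correspond to ratios 2.56, 2.19 and 1.25 times as high. Each exact two-sided permutation p was 0.1, the smallest possible, and remained 0.1 after adjustment over the 3 pairs, so that the design could not place any of the ratios past 0.05. The SD between libraries was at most 0.42 on the log2 scale for any pair in either group. For Psmb10 the largest SD was 0.14, less than its difference between groups.

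**Figure D3:**
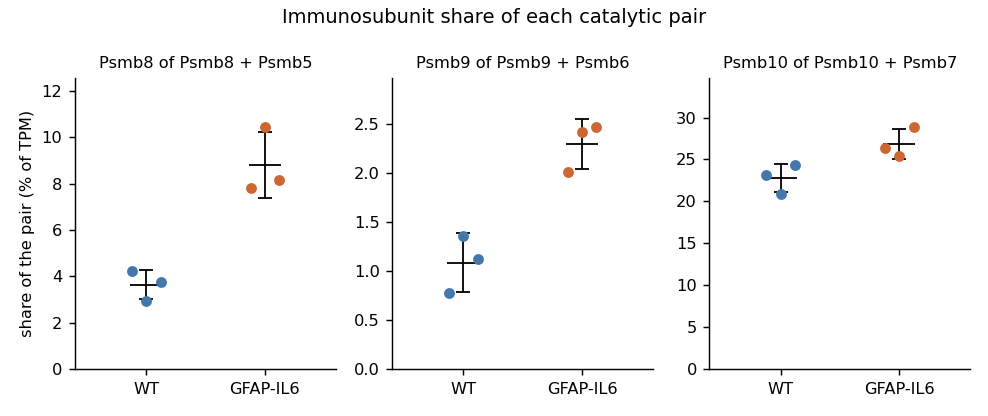
Share of each immunosubunit in the summed TPM of its catalytic pair, in percent on linear axes from 0 that differ between panels, with 1 point for each library and the mean and SD of 3 libraries. The mean share of Psmb8 is 3.64% in WT and 8.81% in GFAP-IL6, and in each panel the groups do not overlap.

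The PA28 genes showed no call and no separation of the groups. Psme1 (ENSMUSG00000022216.14, chromosome 14, 55578123 to 55581529, plus strand) had 18.3 to 24.8 CPM in WT and 19.3 to 22.1 CPM in GFAP-IL6, with an interval of the fold change from 0.778 to 1.14. Psme2 (ENSMUSG00000079197.8, chromosome 14, 55587441 to 55591113, minus strand) lies 5911 bases from Psme1 and had 17.1 to 19.3 CPM in WT and 16.3 to 19.3 CPM in GFAP-IL6, with an interval from 0.816 to 1.14. Both intervals lie below that of Psmb8.

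Psme3 (ENSMUSG00000078652.7, chromosome 11, 101316213 to 101323537, plus strand) had 100.5 to 104.4 CPM in WT and 92.9 to 104.7 CPM in GFAP-IL6, with an interval from 0.85 to 1.08. The adjusted p values of the 3 genes were 0.716, 0.831 and 0.703 by edgeR for Psme1, Psme2 and Psme3, and their log2 fold changes lay between -0.09 and -0.05. Of the 50-base subsequences of Psme2, 28.3% also occur in transcripts of other genes, among them the retrogene Psme2b. Psme2b had at most 9 counts in any library.

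The proportions of the PA28 genes to each other were also similar in value. The log2 TPM ratio of Psme1 to Psme2 was 0.08 ± 0.15 in WT against 0.05 ± 0.04 in GFAP-IL6 (SD, n = 3 each). The ratios to Psme3 differed between groups by -0.02 for Psme1 and 0.00 for Psme2, with exact permutation p values of 1, while the SD between libraries was up to 0.22.

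The other subunits of the proteasome were used as a reference for the 9 genes. The 33 other 20S and 19S genes tested, counted as subunits here, include the 19S assembly chaperones Psmd5, Psmd9 and Psmd10. None of the 33 was called by edgeR, and 17 had an unadjusted p under 0.05, all of them lower in GFAP-IL6. Over all genes tested, 20.5% had an unadjusted p under 0.05, and 9.37% had one and were lower. In 32 of the 33 the value was lower, against 50.6% of all genes tested, with a median log2 fold change of -0.21 and a range from -0.39 to 0.03. The median over the 3 constitutive partners was -0.26, within this range. DESeq2 and limma-voom also called none of the 33, whereas omission of the low-count filter called 5 and the fit without WT replicate 1 called 4. Without WT replicate 2, in which the alpha subunits were highest, the median was -0.13.

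Among the alpha subunits, which form the outer rings of the core, 7 of 8 were tested and 5 had an unadjusted p under 0.05. The largest difference was that of Psma6, from 71.7 ± 11.3 CPM in WT to 55.8 ± 3.07 CPM in GFAP-IL6 (SD, n = 3 each; edgeR, adjusted p = 0.1). Among the beta subunits without an inducible counterpart, Psmb3 had the smallest p, with a log2 fold change of -0.34 and an adjusted p of 0.0985 by edgeR. Psma8, the alpha subunit of the testis, had at most 7 counts and Psmb11, the beta subunit of the thymus, at most 1, and neither was tested.

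The 19S particle, which recognises and unfolds ubiquitinated proteins, was similar. Its 6 ATPases had a median log2 fold change of -0.21, and the 16 other 19S genes tested, chaperones included, one of -0.19. Psmc2 had a log2 fold change of -0.35 and Psmd14, the subunit that removes ubiquitin, also -0.35, with adjusted p values of 0.114 and 0.111 by edgeR. Of the assembly factors listed separately, Pomp, the chaperone that assists incorporation of beta subunits, had 88.7 ± 13.4 CPM in WT against 74.8 ± 2.53 CPM in GFAP-IL6 (SD, n = 3 each; edgeR, adjusted p = 0.21). Psmf1, an inhibitor of the core, differed by -0.31 on the log2 scale (edgeR, adjusted p = 0.0852). Of the 7 genes in this list edgeR called 0, and 2 had an unadjusted p under 0.05.

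Set against the mean TPM of Psma1 to Psma7 in the same library, Psmb8 was at 1.92% to 3.25% of the alpha subunits in WT and at 6.42% to 7.79% in GFAP-IL6. Psmb9 was at 1.22% to 1.75% and at 2.77% to 3.52%. Psmb10 was at 39.7% to 47.3% and at 50.2% to 56.1%. On this scale all 3 immunosubunits were separated between groups. The PA28 genes overlapped, but their means were also higher in GFAP-IL6, at 37.2% and 42.0% for Psme1, 35.1% and 40.5% for Psme2 and 72.6% and 83.2% for Psme3, beside 44.4% and 52.6% for Psmb10. Nothing particular to Psmb10 is therefore read from this scale.

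The constitutive partners overlapped on the same scale. Psmb5 was at 66.7 ± 6.27% of the alpha subunits in WT and at 73.7 ± 6.19% in GFAP-IL6, Psmb6 at 137.8 ± 16.2% and 138.2 ± 2.83%, and Psmb7 at 150.5 ± 6.52% and 142.9 ± 4.45% (SD, n = 3 each). Psmb6 and Psmb7, which did not overlap in CPM, thus overlapped relative to the alpha subunits of the same library. These proportions were computed after the values were seen and are given without a test.

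Regulators of proteasome genes were examined as a further list. Ifng, which encodes interferon gamma, the main known inducer of the immunoproteasome, had 0 counts in all 6 libraries, which allows a level of up to 0.179 to 0.396 CPM depending on the library. Of 10 regulators tested, 4 were called, all higher in GFAP-IL6, against 2.65% of all genes tested called as higher. The median over the 10 was 0.50 on the log2 scale, and the list was chosen with earlier results known. Nlrc5, the coactivator of MHC class I genes, was covered by 10, 20 and 17 reads in WT and 38, 14 and 28 reads in GFAP-IL6, and rose by 1.42 ± 0.30 (SE) on the log2 scale (edgeR, adjusted p = 0.0234). Irf8, an interferon regulatory factor of myeloid cells, rose from 4.58 ± 0.456 to 12.1 ± 1.76 CPM, Stat3, which transmits the IL6 signal, from 47.6 ± 0.784 to 82.7 ± 13.1 CPM, and Ifngr1, a chain of the interferon gamma receptor, from 13.9 ± 2.20 to 24.6 ± 3.44 CPM (SD, n = 3 each). Irf1, an activator of immunosubunit genes, had 6.97, 6.50 and 5.96 CPM in WT and 8.25, 9.51 and 12.2 CPM in GFAP-IL6 without being called.

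The genes that carry peptides onward from the proteasome to the cell surface were called in 2 of 10 cases. Both were called as higher, as were 2.65% of all genes tested. H2-K1, an MHC class I heavy chain, rose from 18.8 ± 1.62 to 34.2 ± 3.22 CPM and H2-D1, another, from 30.0 ± 4.41 to 49.8 ± 5.44 CPM (SD, n = 3 each). edgeR gave adjusted p values of 0.000529 and 0.00385. Both belong to a family of near-identical genes, whose levels are uncertain where reads fit several members. B2m, the light chain of MHC class I, had a log2 fold change of 0.40 and Tapbp, which assists peptide loading, one of 0.42, with adjusted p values of 0.0791 and 0.0521 by edgeR. The median over the 10 genes was 0.41.

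**Figure D4:**
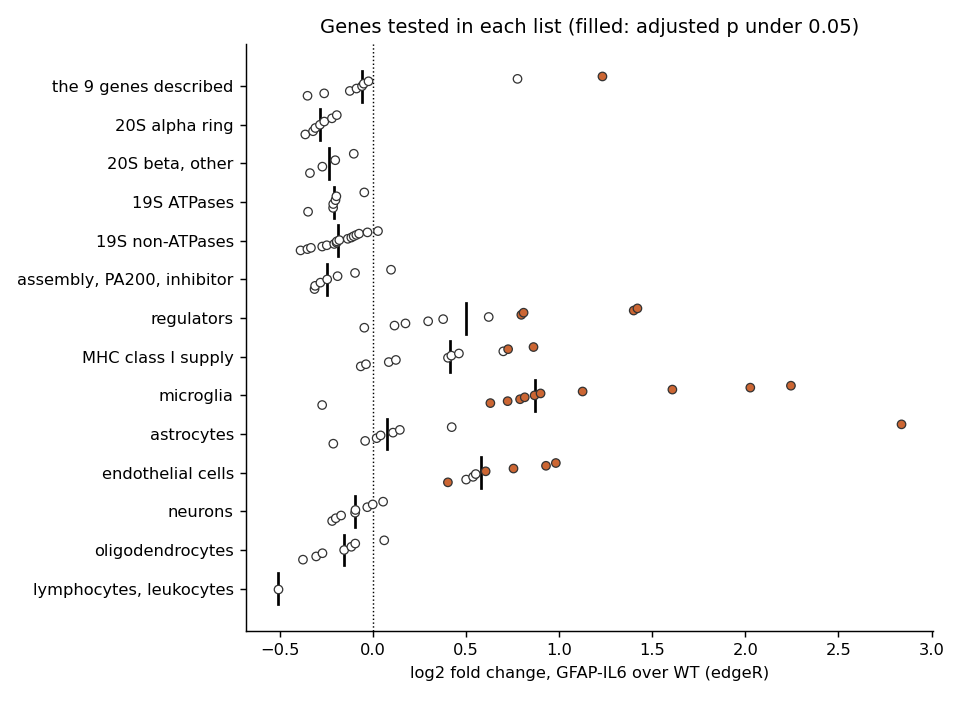
Log2 fold change, GFAP-IL6 over WT, of every tested gene in each list, with 1 point for each gene, filled where the adjusted p was under 0.05, and a vertical bar at the median of the list. The 20S and 19S lists lie mostly below 0 with no filled point, and the microglial list has 10 filled points of 11.

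Markers of some cell types also differed between the groups. Of 11 microglial markers, 10 were called and higher in GFAP-IL6, against 2.65% of all genes tested. The summed level of the 11 was 403.8 to 494.3 CPM in WT and 822.6 to 953.8 CPM in GFAP-IL6. The one not called, P2ry12, a receptor of resting microglia, had 46.3 ± 9.75 CPM in WT against 38.4 ± 4.64 CPM in GFAP-IL6 (SD, n = 3 each). Endothelial markers were called as higher in 5 of 8 cases, with a sum of 188.01 to 206.4 CPM in WT and 288.8 to 334.5 CPM in GFAP-IL6. Of 8 astrocyte markers only Gfap was called, higher by 2.84 on the log2 scale, and 0 of 8 neuronal and 0 of 7 oligodendrocyte markers were called by edgeR (3 and 0 had an unadjusted p under 0.05). The part of these cell types in the level of Psmb8 was not tested.

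Lymphocyte and blood leukocyte markers were low. Of 13 such genes, 9 had at most 3 counts in every library, and Cd3d, a chain of the T cell receptor complex, had 0 counts in all of them. Cd4, a coreceptor of helper T cells, had 4 to 44 counts and was the one gene of the list tested, with 1.64 ± 0.927 CPM in WT against 1.19 ± 0.64 CPM in GFAP-IL6 (SD, n = 3 each), and was not called. The sum of the list was 1.39 to 3.70 CPM in WT and 2.68 to 2.87 CPM in GFAP-IL6. The other 12 genes, set apart after their values were seen, summed to 0.377 to 1.07 CPM in WT and to 1.19 to 2.23 CPM in GFAP-IL6, higher without overlap. These 12 include the 9 with at most 3 counts, and 26.5% of all genes tested did not overlap either. Nothing is read from this separation. The part of these markers in the level of Psmb8 was not tested.

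The genes whose profile over the 6 libraries was most like that of Psmb8 were sought among 12090 genes with a mean of at least 5 CPM. Likeness was the root mean square difference of log2 CPM after each gene was centred on its WT mean. The nearest were Nr4a1, an immediate early transcription factor, at 0.14, Dok3, an adaptor of myeloid and B cell receptors, at 0.15, the ceramidase gene Acer2 at 0.15, Vav1, a signalling protein of blood cells, at 0.15 and Ncf1, a subunit of the phagocyte NADPH oxidase, at 0.16. Their folds were between 2.15 for Dok3 and 2.57 for Acer2, on both sides of the 2.34 of Psmb8. Similar folds follow from the selection, because the distance includes the difference between the groups. Psmb8 had 29 to 53 counts per library, so that the order of the nearest genes is subject to its counting error. Whether these genes share a cell type or a regulator with Psmb8 was not tested.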

How the data were processed

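TruSeq mRNA libraries of frontal cortex (3 GFAP-IL6 and 3 WT samples) were analysed, grouped by sample title. Raw counts per gene were deposited by the authors in 1 table with gene lengths. According to the methods, reads were aligned to mm10 with STAR (version 2.4 in the submitters' processing notes) and counted on GENCODE genes with featureCounts, and the strand setting is not given in the sources used here. The submitters' notes also name hg19, which the methods give for human samples.

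The main test was the quasi-likelihood test of edgeR 4.0.16 (R 4.3.3) with TMM scaling, filterByExpr and Benjamini-Hochberg adjustment over 15341 genes, without covariates. DESeq2, which the study used without stating its version, was run beside it in version 1.42.0, as was limma 3.58.1. These fits were tested on simulated data, and the outcome is not reported here. Standard errors were derived from the F statistic. Ratios and shares were compared by exact permutation over libraries. Library totals were 7.56 to 16.9 M, and the floor of 3 counts covers counting error only. No 2 libraries agreed within sampling noise (chi-square per degree of freedom from 2.23 to 20.1 over 15 pairs).

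Positions and exon overlap are from GENCODE release M21 on GRCm38, in which 32593 of 33000 gene identifiers were found, all on the same chromosome. Promoters are from RefSeq. The genes, lists and tests were chosen with earlier results of these data known. From each list the up to 4 tested genes with the smallest p and any other called gene were candidates for naming, as were the 5 genes with the profile nearest to that of Psmb8, and Psma8, Psmb11, Irf1, Ifng, Tap1, P2ry12, Gm20496 and Psme2b were named after their values were seen.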

Additional observations from a re-analysis of the deposited data

How the results depend on the processing

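The number of the 9 genes called was 1 in the fits with other scalings, the stricter filter, DESeq2, limma-voom, thinning to the smallest library and each library left out, and 2 without the low-count filter and with the replicate block, where Psmb7 joined Psmb8 with log2 fold changes of -0.36 and -0.34. The number of all genes called was 439, against 1154 without the filter, 750 with the replicate block, and 187 (without GFAP-IL6 replicate 3; 282 without GFAP-IL6 replicate 2) to 1061 (without WT replicate 1) with 1 library left out. Same-numbered libraries correlated at 0.0172 to 0.112 in their deviations from the group means, and differently numbered ones at -0.086 to 0.052. A correlation of 0.1 was taken as what a pairing needs, which replicate 1 passed and replicates 2 and 3 did not. The main fit left the libraries unpaired, and the replicate block was an alternative. Leaving out 1 library reversed values near 0. Psmb10 was then between -0.052 and 0.021, Psme1 between -0.21 and 0.012 and Psme2 between -0.13 and 0.0030. The differences of log2 ratio lay between -0.14 and 0.073 for Psme1 to Psme3, -0.081 and 0.076 for Psme2 to Psme3, -0.11 and 0.020 for Psme1 to Psme2, and 0.044 and 0.69 for Psmb8 to Psmb9. Without division by gene length, the share of Psmb8 in its pair differed by 8.68 percentage points in place of 5.16, and that of Psmb9 by 2.01 in place of 1.21, since length weights the 2 genes of a pair by construction. The number of other 20S and 19S subunits called, 0 above, was 5 without the filter, 1 with the replicate block and 4 without WT replicate 1, and their median, -0.21 above, was between -0.26 and -0.13 (without WT replicate 2) with 1 library left out. No scaling moved the median of all genes by more than 0.01. Psmb9 had 9 to 25 counts per library, and thinning to the smallest library gave it a log2 fold change of 1.04 (adjusted p 0.157, not called).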
